A study of Rattus norvegicus with 3 samples.

Results

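The RAB GTPases formed a family of 56 genes among the 14218 genes that had a value on the 3 arrays. They were taken as every gene whose symbol is Rab followed by a number and at most 1 letter from a to d, on probe sets that the platform annotation gives to 1 gene only. This rule found 97 of the 20832 such probe sets. Of the 56 genes, 29 had 1 probe set and 27 had 2 or more, and the median over probe sets stood for the gene. By the known role of their proteins, 20 genes were placed in a secretory group, 24 in an endosomal group, 8 in a synaptic group and 4 in none of these. The rule used names alone and no measured value. Rab39b, Rab41 and Rab42 were on the list of roles and had no probe set of their own here.

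RAB proteins are small membrane-bound GTPases that switch between a GDP-bound and a GTP-bound form. Exchange factors load them with GTP at a given membrane, where they recruit effectors that bud, move, tether or fuse vesicles, and GTPase activating proteins turn them off again. Each membrane of the cell carries its own RABs, and a neuron uses them to send proteins from the Golgi into axon and dendrites, to recycle receptors through endosomes and to hold vesicles ready at synapses.

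The RNA of each array was amplified from a single soma, the cell body of a hippocampal neuron, cut off with a pipette. The sample titles say 1 cell body from a neuron. The study calls the neurons it collected pyramidal, without naming these somata. Sprague-Dawley embryos of day 19 gave the cells, which then spent 14 days in dispersed culture. No treatment, transgene or second genotype is given in the labels, and the 3 arrays (cell 1, cell 2 and cell 3, by the replicate number in the labels) formed 1 group. No animal or dish is named for a soma, so the spread between cells may hold technical as well as biological differences, and with 1 group no test between conditions could be made.

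The level of a gene is given as its percentile among the 14218 genes of the same array, so that 50 is the middle and 100 the top of the array. Since probes differ in affinity, positions of different genes on an array do not rank their transcripts. Background was set in each cell at the 95th percentile of the log2 values of 128 genes not used by neurons (28 chemosensory receptor genes and 100 genes of other organs), which was 9.71, 10.04 and 9.47 in cells 1, 2 and 3. General neuron markers stood high by their median percentile, at 85.7, 84.8 and 92.2 over 14 genes. Of these, 10 stood over percentile 50 in all 3 cells and 2 under it, Syt1 (31.9, 24.7 and 7.08) and Uchl1 (10.6, 11.7 and 23.9). Map2 stood at 28.7, 17.7 and 67.5. The 12 pyramidal neuron markers had medians of 56.5, 41.4 and 84.1, with Neurod2 at 99.9 in all 3 cells and Tbr1 at 2.12, 14.6 and 23.9. Medians were 78.1, 63.0 and 55.4 for 9 oligodendrocyte markers, 53.6, 41.4 and 42.6 for 8 astrocyte markers and 57.3, 70.1 and 36.7 for 9 interneuron markers. The 6 endothelium markers had medians of 65.6, 49.0 and 41.7, with Vwf at 99.8, 99.8 and 99.7. The 10 microglia markers stood at a median of 81.1 in cell 1 against 46.9 and 24.1 in cells 2 and 3. The Gapdh control probe sets of the 3′ and the 5′ end differed by 0.20 log2 in cell 1 but by 3.06 and 2.93 in cells 2 and 3, so cell 1 stood apart from the others in both respects.

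Probe sets of the same RAB gene often lay far apart, which bears on every value below. By their median over cells, 62 pairs of probe sets of the same RAB gene were a median of 31.5 percentile points apart. The gap was 28.7 points for 88 pairs between paralogues of 1 family and 28.3 points for 4506 pairs between RAB genes of different families. Gaps over 50 points made up 29.0% of the pairs within a gene, 29.5% of the pairs between paralogues and 21.6% of the other pairs. Over all 3060 genes with exactly 2 probe sets, the differences between cells seen by each correlated with r = 0.02 to 0.09 for the 3 pairs of cells. Whether every deposited value belongs to the probe set it is listed under was not settled, so the value of a named gene is that of the probe sets listed for it. A gap between paralogues is given as a gap in array position, of a size that also occurred between probe sets of 1 gene.

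As a family the RABs stood a little above the middle of the array. Their median percentile was 53.9 in cell 1, 59.5 in cell 2 and 63.6 in cell 3 (59.0 ± 4.87, SD, n = 3), against 50 for all genes. Without cell 1 the mean of the family medians was 61.6. Ranked only among genes whose mean was over the median of the silent genes, the 45 RAB genes kept had a mean of 48.3. By that ranking the family did not stand above the middle. Over percentile 50 in all 3 cells stood 21 of the 56 genes, 37.5%, against 26.4% of all genes. Under percentile 50 in all 3 cells were 10 RAB genes, beside 25% of all genes, and the remaining 25 RAB genes crossed the middle from cell to cell.

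By the middle of their probe sets, RAB genes passed background about as often as other genes. Above it were 3 RAB genes in cell 1, where 7.15% of all genes were, 5 in cell 2 (5.55% of all genes) and 7 in cell 3 (10.5% of all genes). In all 3 cells at once, 2 RAB genes were above background, Rab8a and Rab7b, which is 3.57% of the family beside 2.01% of all genes. In at least 1 cell 10 of 56 were, beside 15.9% of all genes. Single probe sets gave higher counts. Of the 46 RAB genes whose middle value was never above background, 13 had a probe set above it in at least 1 cell, among them Rab12, Rab15, Rab20, Rab27b, Rab31 and Rab5b. For Rab11b 1 probe set was above it in all 3 cells, at log2 values of 11.57, 11.11 and 12.55. In all, 23 RAB genes had a probe set above background in at least 1 cell and 4 had the same one above it in all 3 cells (Rab7b, Rab8a, Rab11b and Rab34), beside 26.1% and 3.97% of all genes, with 97 probe sets for 56 RAB genes and 20832 for all 14218. For the 33 RAB genes with no probe set above it, an absence of RNA and a low level could not be told apart. By the middle value Rab8a, with 1 probe set, was the only RAB gene in the top 5% in all 3 cells. By that value 1.39% of all genes were. A single probe set each of Rab7b, Rab34 and Rab11b also stood in the top 5% in all 3 cells. The share of all genes with such a probe set is not given.

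**Figure D1:**
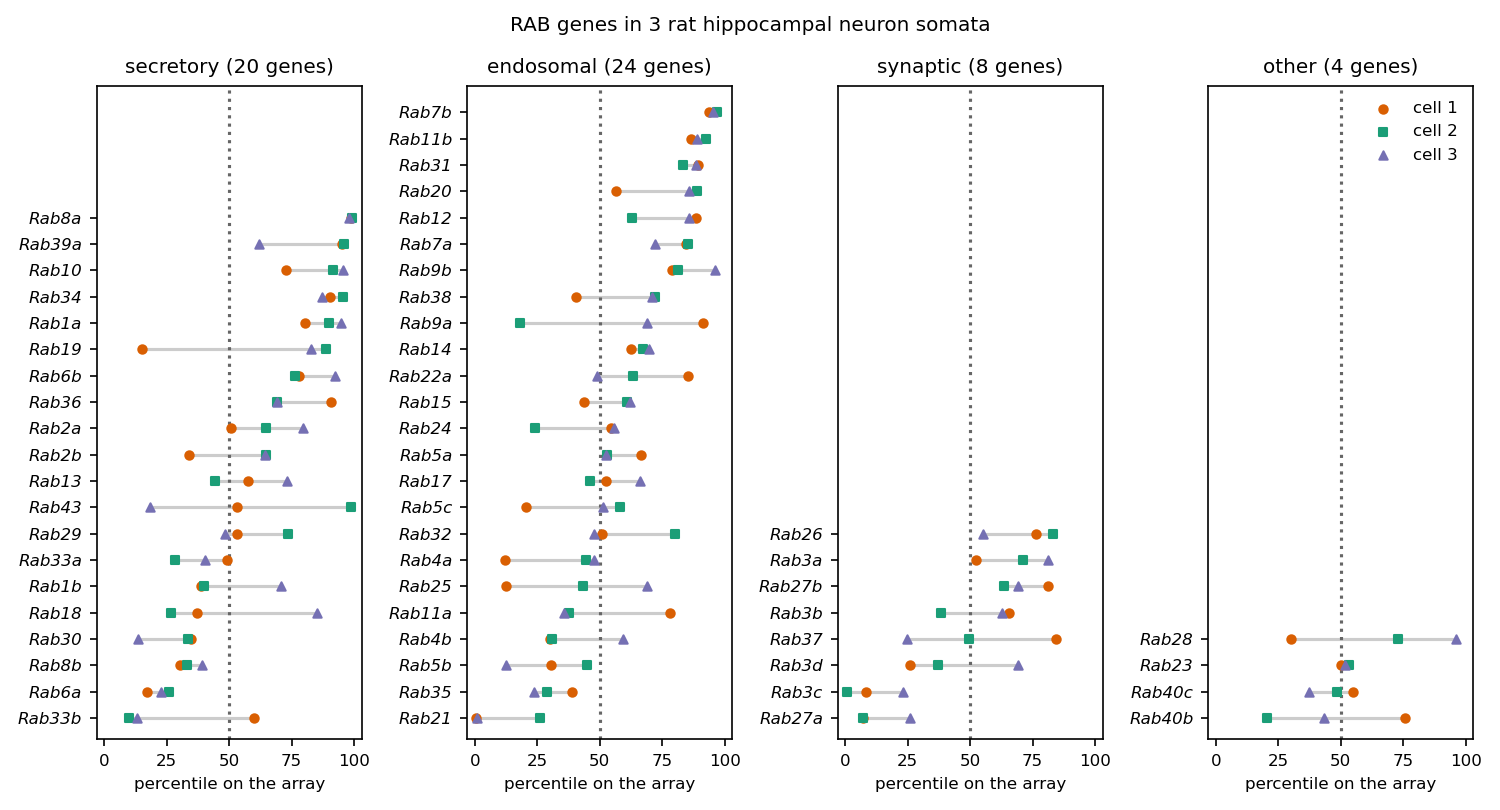
Percentile of each of the 56 RAB genes on the array (x axis, 100 is the top) in cell 1 (circles), cell 2 (squares) and cell 3 (triangles), by role group and ordered by the median over cells. Grey lines join the lowest and highest cell and the dotted line marks 50. Rab8a and Rab7b stayed near the top in all 3 cells, while Rab19, Rab43, Rab9a and Rab28 crossed much of the array.

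The secretory group had median percentiles of 53.1, 67.0 and 70.0 in cells 1, 2 and 3 (63.3 ± 9.005, SD, n = 3). Over percentile 50 in all 3 cells stood 8 of its 20 genes, beside 26.4% of all genes. Rab8a, which delivers membrane from the trans-Golgi to the plasma membrane and the cilium, led the family by the middle value. Its percentiles were 98.6, 99.1 and 98.0. With the brightest probe set of each gene its mean percentile was 96.9, under those of Rab7b (99.1), Rab34 (98.9) and Rab11b (98.0). The deposited log2 values of Rab8a were 11.18, 11.49 and 11.20, all over background, and the 3 cells lay close together. Rab8b, which shares its route, had percentiles of 30.2, 33.2 and 39.2, so the ranges of the pair were far apart. Rab10, which brings membrane to growing axons and dendrites, stood at 72.9, 91.4 and 95.5, and it passed background in cell 3. Rab13, the member of the Rab8 family best known at cell junctions, stood at 57.5, 44.3 and 73.1.

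Rab1a and Rab1b both act in transport from the ER to the Golgi. Rab1a stood at percentiles of 80.2, 90.03 and 94.8 and passed background in cell 3. Rab1b, with 4 probe sets, stood lower at 38.9, 39.9 and 70.9. Both genes were highest in cell 3. Rab2a and Rab2b, which act between Golgi and ER, stood at 50.6, 64.7 and 79.7 and at 34.0, 64.6 and 64.4, and both were lowest in cell 1. For the Golgi GTPase Rab6 the neuronal form Rab6b stood at 77.8, 76.5 and 92.5, whereas Rab6a stood at 17.0, 25.8 and 22.9. By the middle value of their probe sets, the ranges of these 2 forms did not overlap. Single probe sets came nearer, 1 of Rab6a lying at 23.9, 63.3 and 48.9 and 1 of Rab6b at 56.2, 66.9 and 86.5. The ranges of these probe sets overlapped. Rab6a is the form found in most tissues.

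Of the other Golgi RABs, Rab39a was second in the group by its median, with percentiles of 95.2, 95.9 and 62.1, above background in cells 1 and 2 only. Rab34, linked to the Golgi and to cilium formation, stood at 90.2, 95.4 and 87.3, above background in cell 2. Its relative Rab36 stood at 90.9, 69.2 and 69.0, so both members stayed over percentile 50. The 2 probe sets of Rab34 differed, 1 lying at 98.7, 99.5 and 99.4 and the other at 49.1, 71.5 and 24.8. Rab43, of ER and Golgi, had the widest range of any RAB gene, with log2 values of 7.37, 11.30 and 5.86. It was high in cell 2 alone, where it passed background at percentile 98.7. Rab19 stood at 15.3 in cell 1 against 88.6 and 82.8 in the others, and Rab18, of ER and lipid droplets, at 85.2 in cell 3 against 37.3 and 26.6. Each of these 3 genes rests on 1 probe set. The lowest of the group by their median were Rab33b, which acts at the Golgi and in autophagosome formation (59.9, 9.95 and 13.3), and Rab6a. Rab33a, of vesicles sent into the growing axon, stood at 49.1, 28.4 and 40.3, Rab29 at 53.0, 73.5 and 48.4 and Rab30 at 34.7, 33.4 and 13.5.

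Sequence upstream of 5 RAB genes is shown. They make up the paralogue pairs with the widest gaps by the middle value of each gene, Rab8a with Rab8b and Rab6b with Rab6a, and the main RAB of synaptic vesicles, Rab3a. Each line gives the 120 bases that end at the annotated start of the gene in RefSeq (GRCr8), 5′ to 3′ on the strand of the gene, with GC boxes (GGGCGG on either strand) in capitals.
Rab8a: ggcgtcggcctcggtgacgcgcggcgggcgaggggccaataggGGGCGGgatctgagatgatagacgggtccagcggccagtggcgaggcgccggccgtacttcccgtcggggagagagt
Rab8b: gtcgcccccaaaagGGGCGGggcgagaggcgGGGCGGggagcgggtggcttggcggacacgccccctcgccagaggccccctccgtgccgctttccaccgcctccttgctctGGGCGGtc
Rab6a: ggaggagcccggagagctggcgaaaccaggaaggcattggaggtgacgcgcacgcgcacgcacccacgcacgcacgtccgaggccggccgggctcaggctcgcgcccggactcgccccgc
Rab6b: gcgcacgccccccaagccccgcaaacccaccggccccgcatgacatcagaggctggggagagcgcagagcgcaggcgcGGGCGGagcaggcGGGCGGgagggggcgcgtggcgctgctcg
Rab3a: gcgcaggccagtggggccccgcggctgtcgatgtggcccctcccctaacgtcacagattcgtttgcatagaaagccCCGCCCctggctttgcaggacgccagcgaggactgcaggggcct

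These stretches lie at chr16:17709413-17709532 (minus strand) for Rab8a, chr8:76417549-76417668 (minus strand) for Rab8b and chr1:164369913-164370032 (plus strand) for Rab6a. Those of Rab6b and Rab3a lie at chr8:112574103-112574222 (plus strand) and chr16:18722274-18722393 (minus strand). The shown bases held 1 GC box in Rab8a, 3 in Rab8b, 2 in Rab6b, 1 in Rab3a and 0 in Rab6a, so the lower member of a pair had more of them in 1 pair and fewer in the other. Windows of 300 bases, from 250 before to 50 after the start, were found for 45 of the 56 RAB genes (46 windows). A GC box was present in 36 of these 46 windows (78.3%), in 55.8% of the 13193 windows of genes with a value here and in 33.1% of all 33469 windows. The TATA letters TATAAA, on either strand, were in 0 of the 46 RAB windows, in 8.47% of the windows of genes with a value and in 14.2% of all. The cyclic AMP response letters TGACGTCA were in 1 RAB window (2.17%), beside 2.71% and 1.83%. The RAB windows held a median of 21 CpG dinucleotides against 18 in those of genes with a value, at a median GC content of 63.3% against 59.7%. A match of letters describes the window and is no measured binding site.

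The endosomal group had median percentiles of 55.6, 59.5 and 64.1 (59.7 ± 4.21, SD, n = 3), and 9 of its 24 genes stood over percentile 50 in all 3 cells, beside 26.4% of all genes. By its middle value Rab7b, which returns proteins from late endosomes to the Golgi, stood highest at 93.7, 97.1 and 95.5. That value was above background in every cell, with log2 values of 9.86, 10.67 and 10.54. Of its 2 probe sets, 1 stood at percentiles of 99.4, 99.5 and 99.2, above background in every cell. The other stood at 62.2, 85.4 and 81.8 and was never above it. Rab7a, the general RAB of late endosomes and lysosomes, stood at 84.7, 85.4 and 72.2. Rab9b and Rab9a act on the same return route. Rab9b stood at 78.9, 81.3 and 96.1 and passed background in cell 3, while Rab9a differed widely, at 91.2 in cell 1, 17.97 in cell 2 and 68.8 in cell 3.

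The recycling RABs were led by Rab11b at percentiles of 86.6, 92.7 and 88.8, though its 2 probe sets lay 69.7 points apart. Rab11a, the form found in most tissues, stood at 78.1 in cell 1 and at 37.9 and 35.7 in cells 2 and 3. Rab25, the epithelial member of that family, had its lowest value where Rab11a had its highest, at 12.5, 43.1 and 68.8. The fast recycling RABs Rab4a (12.1, 44.6 and 47.8) and Rab4b (29.96, 30.9 and 59.5) both had their lowest percentile in cell 1. None of these 4 was above background in any cell. Rab35, which recycles from endosomes to the plasma membrane, stood at 39.0, 29.0 and 23.9. Rab17, a recycling RAB of epithelia and dendrites, stood at 52.7, 46.3 and 66.0, and Rab12, which leads from recycling endosomes to lysosomes, at 88.6, 63.1 and 85.8.

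Among early endosome RABs the Rab5 family shared no common position. Rab5a stood at 66.3, 52.8 and 52.7, Rab5b at 30.4, 45.0 and 12.7 and Rab5c at 20.5, 58.1 and 51.5. These values rested on probe sets that disagreed, since those of Rab5a lay at 11.2 and 86.4 by their median over cells and those of Rab5b between 15.5 and 90.6. By its middle value no Rab5 gene was above background, although a probe set of Rab5b was in cells 2 and 3, at log2 values of 11.38 and 9.92, and 1 of Rab5a in cell 2, at 10.18. Rab21, of early endosomes and integrin traffic, was the lowest RAB gene in this group at 0.36, 26.1 and 0.77. Rab15, an endosomal RAB of neurons, stood at 43.8, 61.0 and 62.1, and all 3 of its probe sets were lowest in cell 1. Rab14, of early endosomes and Golgi, stayed between 62.6 and 69.5, although its 5 probe sets lay between 15.5 and 70.3. Rab31, from trans-Golgi to endosomes, stood at 89.2, 83.4 and 88.5 and Rab22a at 85.3, 63.2 and 48.9.

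Of the remaining endosomal RABs, Rab20, known from phagosomes, was low in cell 1, with 56.7 there and 88.8 and 85.9 in the others. Rab38 and Rab32, both of lysosome-related organelles, stood at 40.6, 72.3 and 71.1 and at 51.0, 80.0 and 47.8. Rab24, linked to autophagy, stood at 54.6, 24.1 and 55.7.

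The synaptic group had median percentiles of 58.9, 43.9 and 59.0 (53.9 ± 8.68, SD, n = 3), with 3 of 8 genes over percentile 50 in all 3 cells, beside 26.4% of all genes. By its middle value none of the 8 passed background in any cell, and by single probe sets Rab27b alone did. Rab3a, the main RAB of synaptic vesicles, stood at 52.2, 71.3 and 81.1. Its 2 probe sets lay at 61.5, 62.9 and 81.6 and at 43.0, 76.2 and 76.4, and both were lowest in cell 1 and highest in cell 3. Rab3c, also of synaptic vesicles, stood at 8.49, 0.88 and 23.2, low on every array. Rab3b, of secretory vesicles, stood at 65.6, 38.1 and 62.7, and Rab3d, best known from exocrine and endocrine granules, at 25.8, 37.2 and 69.0.

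Rab26, which marks clusters of synaptic vesicles, had the highest median of the group at percentiles of 76.4, 83.1 and 55.2. Rab37, its relative on secretory granules, was spread widely at 84.2, 49.7 and 24.5. Rab27b and Rab27a dock secretory granules, and Rab27b stood at 81.2, 63.7 and 69.1 where Rab27a stood at 6.98, 7.27 and 25.9. The ranges of this pair were apart. The 2 probe sets of Rab27b differed between cells in opposite ways, 1 standing at 93.0, 19.3 and 15.5 and the other at 46.9, 90.3 and 93.6, so the middle value of the gene describes neither.

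Outside these roles, Rab28, known from cilia and photoreceptors, had log2 values of 6.57 in cell 1, 8.17 in cell 2 and 10.70 in cell 3, and passed background in the last alone. Rab23, a regulator of Hedgehog signalling, had the narrowest range of the family in normalised log2 value, at percentiles of 50.3, 53.4 and 51.7, as the middle of 2 probe sets that lay at 38.8 and 62.5. The ubiquitin ligase adaptors Rab40b (75.9, 20.7 and 43.4) and Rab40c (54.8, 48.6 and 37.4) were both highest in cell 1.

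Differences between cells for the same gene do not hold probe affinity, and for them values were brought to a common distribution (quantile normalisation). The middle RAB gene had an SD of 0.69 log2 over the 3 cells, against 0.77 for all genes. Within 2-fold in all 3 pairs of cells were 17 of 56 RAB genes and 4193 of all 14218. In cell 3 against cell 1, 19 RAB genes were over 2-fold higher and 9 over 2-fold lower, where 26.9% and 22.7% of all genes were. In cell 2 against cell 1 the counts were 12 higher and 10 lower (24% and 22.5% of all genes), and in cell 3 against cell 2 they were 13 higher and 8 lower (18.8% and 17.4%). With the brightest probe set of each gene, 24 RAB genes (42.9%) were higher in cell 3 than in cell 1, against 30.1% of all genes, and 21 (37.5%) higher in cell 3 than in cell 2, against 20.8%. The median difference of cell 3 from cell 1 was 0.20 log2 for RAB genes and 0.21 for all genes.

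The widest ranges over the 3 cells were 5.36 log2 in Rab43, 4.01 in Rab28, 3.63 in Rab9a and 3.46 in Rab19. Rab39a (2.75), Rab37 (2.58), Rab18 (2.57) and Rab25 (2.34) followed. Of these 8 genes, each carried by 1 probe set, Rab28, Rab18 and Rab25 were highest in cell 3, Rab43, Rab39a and Rab19 in cell 2, and Rab9a and Rab37 in cell 1. At the other end, Rab23 (0.11), Rab14 (0.30), Rab8b (0.35), Rab6a (0.42) and Rab8a (0.50) had the smallest ranges of the middle value. Apart from Rab8a, with 1 probe set, these are middles of probe sets that differed between cells in opposite ways. The difference of cell 3 from cell 1 was -2.00, 2.09 and 0.60 log2 for the probe sets of Rab8b and between -1.69 and 1.69 for those of Rab14, and that of cell 2 from cell 1 was -0.85 and 1.70 for those of Rab6a.

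Genes with several probe sets show whether these differed between cells in the same direction. All probe sets were higher in cell 3 than in cell 1 for 9 of the 27 RAB genes with 2 or more, namely Rab1b, Rab2a, Rab2b, Rab3a, Rab6b, Rab10, Rab11b, Rab15 and Rab20, beside 26.4% of the 4526 genes with 2 or more. All were lower for 2, Rab30 and Rab40b, beside 16.3%. Of the 9, 5 belong to the secretory route, 3 to endosomes and 1 to synaptic vesicles. How many genes of each group had 2 or more probe sets is not given, so this split does not compare the groups. For Rab11b 1 probe set was higher by only 0.08 log2. In cell 3 Rab10 was higher than in cell 1 by 2.76 and 1.69 log2 on its 2 probe sets, Rab3a by 1.13 and 1.53, Rab6b by 1.81 and 0.91, and Rab15 by 1.16, 3.33 and 0.68. Among genes of the array with exactly 2 probe sets, both pointed the same way in 51.8% of 3060 genes, and among RAB genes in 8 of 18. At this rate, probe sets that point the same way do not establish the direction of a gene. By their medians neuron markers were highest in cell 3 and microglia markers in cell 1, with 7 of 14 general neuron markers over 2-fold higher in cell 3 than in cell 1 and 4 lower, and 3 of 10 microglia markers higher and 6 lower. The part of these and of the 3′ to 5′ difference in the RAB values was not tested.

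**Figure D2:**
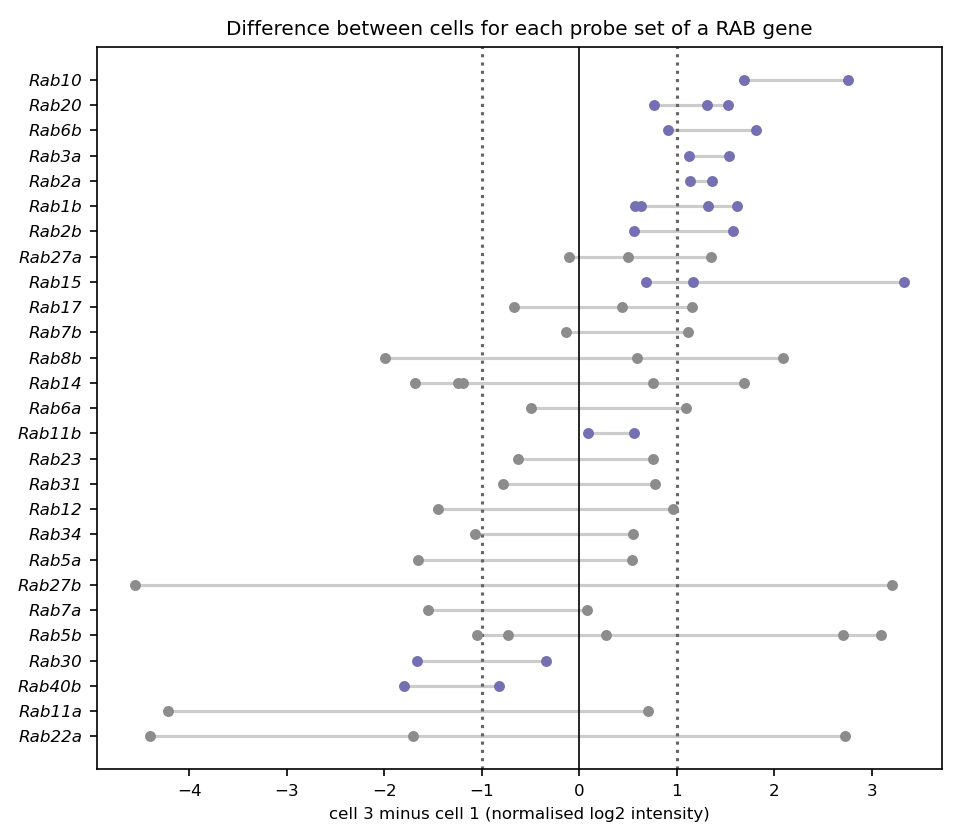
Difference between cell 3 and cell 1 in quantile-normalised log2 intensity (x axis) for each probe set of the 27 RAB genes with 2 or more, ordered by the difference of the gene. Purple points mark the 11 genes whose probe sets all lie on 1 side of 0, grey points the others, and dotted lines mark 2-fold. In Rab27b, Rab22a and Rab11a the probe sets lay on opposite sides by several log2 units.

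Paralogues were compared in 31 pairs from 17 families, which share genes and are not independent. By the middle value of each gene, the order was the same in all 3 cells for 19 pairs, and in 15 the ranges did not overlap. The shares for other pairs of genes are not given, so these counts are no result about paralogues. The gap of Rab8a over Rab8b was the widest at 68.5, 65.9 and 58.8 points (64.4 ± 5.02, SD, n = 3). Next came Rab6b over Rab6a (60.3 ± 9.48), Rab27b over Rab27a (58.0 ± 15.6) and Rab3a over Rab3c (57.4 ± 13.3). Within the Rab8 family the order was Rab8a, Rab10, Rab13 and Rab8b in each cell, with Rab10 over Rab8b by 52.4 ± 8.41 points. Rab1a stood over Rab1b by 38.5 ± 13.4 points, and by 24.7 with the brightest probe set of each gene. With that probe set Rab8a stood over Rab8b by 54.5, Rab6b over Rab6a by 45.4 and Rab10 over Rab8b by 37.5.

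Other families held no fixed order. The gap from Rab3d to Rab3b was 39.7 points in cell 1, 0.98 in cell 2 and -6.26 in cell 3. Rab3a was under Rab3b in cell 1 alone. The order also changed with the cell in Rab4a and Rab4b, Rab5c and both other Rab5 genes, Rab9a and Rab9b, Rab11a and Rab25, Rab26 and Rab37, Rab32 and Rab38, Rab33a and Rab33b, Rab34 and Rab36, and Rab40b and Rab40c. By their mean, the smallest gap with a fixed order was that of Rab2a over Rab2b (10.7 ± 9.10), then that of Rab8a over Rab10 (25.7, 7.70 and 2.56 points) and that of Rab7b over Rab7a (14.7 ± 7.60). Paralogues differed in the same direction between cells 1 and 2 in 15 of 31 pairs, between cells 1 and 3 in 17 and between cells 2 and 3 in 22. Here too the shares for other pairs of genes are not given.

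**Figure D3:**
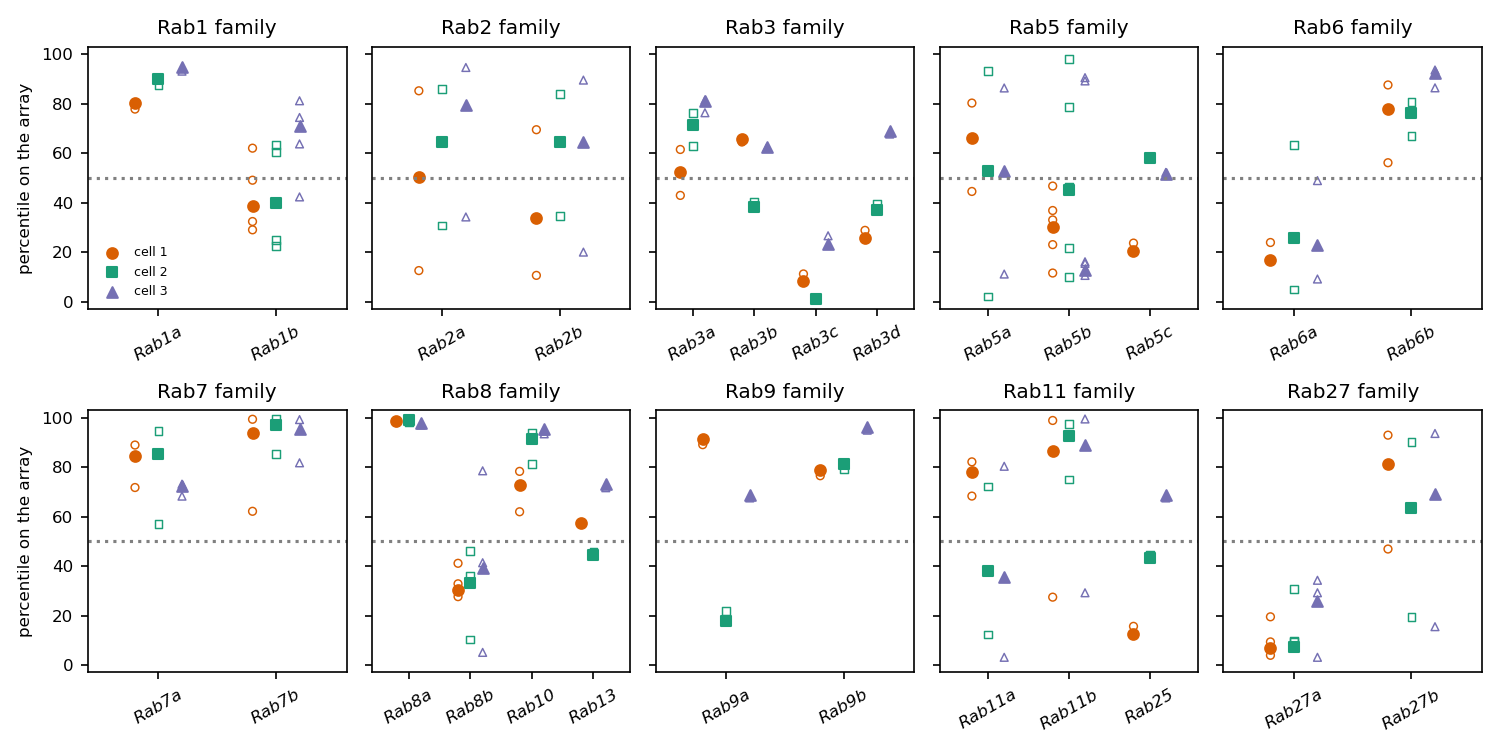
Percentile on the array (y axis) of the members of 10 RAB families in cell 1 (circles), cell 2 (squares) and cell 3 (triangles). Filled marks give the gene among 14218 genes and open marks its probe sets among 20832, and the dotted line marks 50. The filled marks of Rab8a and Rab8b, Rab6a and Rab6b, and Rab27a and Rab27b stay apart, while open marks of Rab5b, Rab11b and Rab27b spread over much of the axis.

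Of the 27 RAB genes with several probe sets, 11 spanned over 50 percentile points between probe sets. Rab12 was the widest, with probe sets at 22.1 and 98.1 by their median over cells, and Rab5a, Rab5b, Rab27b, Rab11b, Rab2b (20.03 to 84.0), Rab17, Rab11a, Rab2a (30.8 to 86.0), Rab14 and Rab34 made up the rest. Probe sets lay closest for Rab10 (81.2 and 94.1), Rab3a (62.9 and 76.2) and Rab27a (3.90 to 19.5). The position of Rab8a, Rab1a and Rab3c came from 1 probe set each and had no such check.

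The proteins that load, switch off, carry or obey RABs were described by a list of 129 genes, of which 113 had a value. Their median percentile was 51.2, 49.0 and 46.5 (48.9 ± 2.36, SD, n = 3), near the middle of the array, and 5 were above background in all 3 cells (4.42%). These were Tbc1d2 (95.9, 99.2 and 99.1), a GTPase activating protein for Rab7, the Rab6 effector Bicd2 (98.6, 99.5 and 99.0), Rilpl2 (97.1, 98.8 and 93.8), which binds Rab8 and Rab10, and the exchange factors Dennd1c (99.3, 99.2 and 99.0) and Dennd2d (98.3, 98.3 and 98.2). Of the 113, 29 were over 2-fold higher in cell 3 than in cell 1 and 24 lower, beside the 26.9% and 22.7% of all genes.

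By class, the median percentiles averaged 59.6 ± 5.11 over cells for 6 escort, prenylation and GDI genes, 58.2 ± 9.70 for 30 GTPase activating proteins, 48.5 ± 5.23 for 47 effectors and 39.7 ± 9.34 for 30 exchange factors. Gdi2, which extracts RABs from membranes, stood at 76.9, 75.7 and 68.4. Rabggtb, a subunit of the enzyme that attaches their lipid anchor, stood at 62.6, 79.3 and 94.0, whereas the escort protein Chm stood at 94.2, 16.8 and 6.90, high in cell 1 alone. Lowest in their class by the median over cells were the effector Sytl2 (4.16, 0.03 and 1.28), a partner of Rab27, the exchange factor Dennd3 (9.38, 6.64 and 66.9) and the GTPase activating protein Tbc1d10c (6.98, 3.31 and 17.0). The vesicle release genes Rims3, Rims2, Rims1 and Rph3a, all listed here as effectors, were spread over the array. Only Rims3 was high in every cell. Whether each of them binds a RAB was not tested. Rims3 stood at 96.2, 88.8 and 81.3 and Rims2 at 78.6, 20.4 and 5.09, while Rims1 stood at 21.5, 6.93 and 12.7 and Rph3a at 0.15, 8.63 and 59.5.

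**Figure D4:**
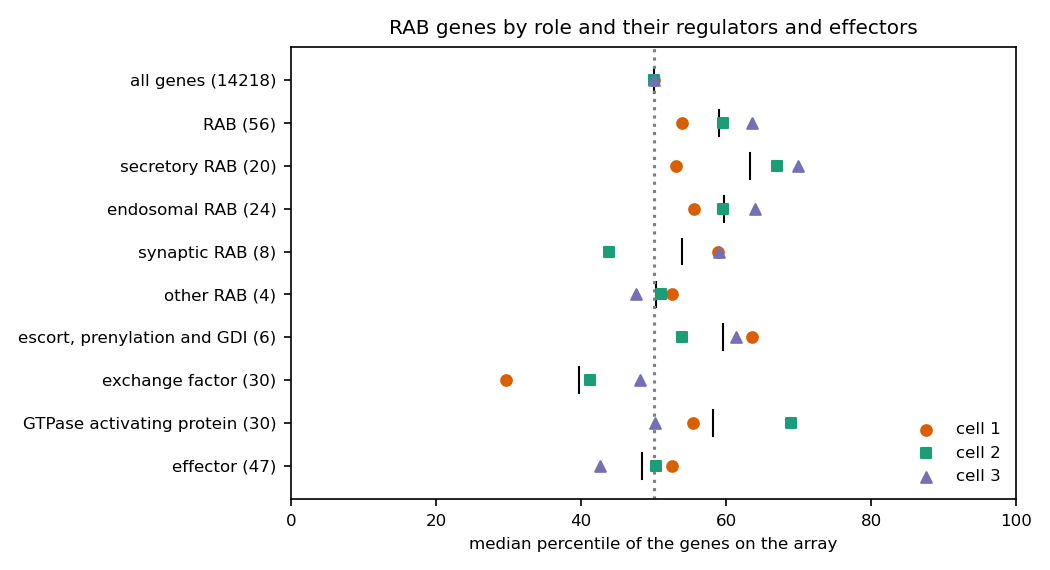
Median percentile on the array (x axis) of the RAB genes, their role groups and 4 classes of regulators and effectors, with the number of genes in brackets, in cell 1 (circles), cell 2 (squares) and cell 3 (triangles). Black bars give the mean of the 3 cells and the dotted line marks 50. The secretory RABs lay highest in cells 2 and 3 among the RAB groups, and the exchange factors lowest in cell 1.

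Across the 56 RAB genes, which share arrays and probe affinities between cells, log2 values of cell 1 correlated with those of cell 2 with r = 0.585 and with those of cell 3 with r = 0.523, and r was 0.603 for cells 2 and 3. The same pairs gave 0.473, 0.438 and 0.676 across all 14218 genes.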

How the data were processed

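Antisense RNA of 3 single somata, amplified with a final round of 14 h and labelled at 5 µg per array, was hybridised to Affymetrix rat arrays. The authors deposited 1 log2 value per probe set, and the submitters' processing notes name RMA 2.0. The methods of the study describe an upper-decile summary of probes with median centring and range scaling of all arrays, without naming the somata, and the deposited log2 values, with array medians of 7.23, 7.16 and 7.09, were not centred. No genome build was given in the sources used here.

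Of 31099 probe sets, 20832 carried 1 gene symbol, 436 several and 9831 none here. The gene numbers of all 97 RAB probe sets were found in the RefSeq table of GRCr8, with 0 changed symbols. Genes were ranked by the median of their probe sets in Python 3.11.15 with pandas 2.3.3, numpy 2.4.6 and scipy 1.17.1, and plots used matplotlib 3.10.9. Quantile-normalised values served for differences between cells, with 1 log2 as the 2-fold threshold. The ranking and difference steps were run on simulated arrays with planted differences. Those arrays were far more alike than the 3 cells, so the run checked the code and not the 2-fold counts given here. No p-value was computed, since 3 arrays formed 1 group, and the small number of arrays limits precision. Depth has no counterpart in array values.

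The members, roles, markers, silent genes and regulators were chosen with earlier results of these data known. Genes were named as follows: the 3 highest and 2 lowest of each role group, the 8 widest ranges, those above background in all 3 cells, every family with 2 or more members, the RABs that the study discusses and those whose probe sets differed by over 50 points. Of the regulators, those above background in all 3 cells and the highest and lowest of a class were named. Other genes named were chosen after their values were seen, and so were the promoters shown. Alternatives were the brightest or the mean probe set, no cross-matching probe sets, a filter on low values, other backgrounds, scalings and thresholds, and leaving out each cell.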

Additional observations from a re-analysis of the deposited data

How the results depend on the processing

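Averaging probe sets or dropping those that can match several transcripts moved no median of the family or a role group by more than its SD over cells. With 1 cell left out the family median ranged from 56.7 to 61.6, which by its construction as a mean of 3 cells cannot move past that SD. The brightest probe set per gene gave 4 RAB genes above background in all 3 cells in place of 2, and 21 (37.5%, beside 20.8% of all genes) over 2-fold higher in cell 3 than in cell 2 in place of 13. With it the synaptic median was 45.3 in place of 53.9, under the middle of the array. A background at the 90th percentile of the silent genes also gave 4 above background in all 3 cells. The share of all genes above background at either setting is not given. Ranking only genes over the median of the silent genes kept 45 RAB genes among fewer and brighter genes, with 50 again the middle of the kept genes. The family median was then 48.3, the endosomal median 48.2 and the synaptic median 47.0, so none of these stood above that middle. The secretory median was 57.2. Over percentile 50 in all 3 cells were 11 RAB genes in place of 21, and the share of the kept genes there is not given. A threshold of 1.5 log2 left 5 RAB genes higher in cell 2 than in cell 1 (14.6% of all genes), 10 higher in cell 3 than in cell 1 (15.5%), and 5 higher (9.20%) and 3 lower (10.1%) in cell 3 than in cell 2. The brightest probe set moved 9 of 31 paralogue gaps by more than their SD. Rab8a over Rab8b fell from 64.4 to 54.5 points, Rab6b over Rab6a from 60.3 to 45.4 and Rab10 over Rab8b from 52.4 to 37.5. Rab1a over Rab1b moved to 24.7, Rab5a over Rab5b to 8.04 and Rab13 over Rab8b to 8.52. Rab34 over Rab36 moved from 14.6 to 29.99, Rab5a over Rab5c from 13.9 to 45.4 and Rab5c over Rab5b from 14.04 to -37.3 points. The brightest probe set also moved the mean percentile of 14 of 56 genes. Without cell 1 the gap of Rab3b over Rab3d was -2.64 points, and without another cell at most 20.4. No paired analysis was possible because the samples form 1 group. The background limits what can be said of the 33 RAB genes with no probe set above it.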

Other observations

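Another 3 probe sets carried the symbols of both Rab1a and Rab1b and were left out of the genes. They stood at percentiles of 71.7, 65.1 and 83.1, of 37.8, 71.1 and 65.8, and of 33.7, 7.76 and 33.5 in cells 1, 2 and 3, and all 3 lay below the percentiles of Rab1a in each cell.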
